A study of Mus musculus with 12 samples.

Results

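The genes described here copy and mend DNA: 57 genes for the replicative helicase, the sliding clamp and its loader, the DNA polymerases, the single-stranded DNA binding protein RPA, the ligases, and the proteins of homologous recombination, end joining, excision repair, mismatch repair and the DNA damage checkpoint. A gene was taken where the platform annotation gave a row of the deposited tables exactly 1 symbol and that symbol was on the list. Of the 57, 50 have a gene-level row, of 14847 genes with such a row, and 52 have exon-level probe sets, of 16358 genes with any. These 52 genes hold 1076 of the 229581 probe sets, from 2 to 53 per gene with a median of 19. Pcna and Lig3 were measured by probe sets only, and values of Rfc2, Rpa3, Lig1, Xrcc2 and Fancd2 were not analysed here. Of these, Rpa3 and Lig1 count only among the promoter windows below. The list was drawn up by function, but with results of these arrays already known, and Mcm5, Rad54l and Rad50 were selected on their measured values, both at gene level and over their probe sets. Values of these 3 genes are therefore given as a description with no p. Where they are counted among called members or probe sets, the count only says where they stand in the fit and supports nothing. The adjusted p of any other member places it in the fit over the whole table without being independent support.

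The arrays hold cerebellar RNA of female mice at postnatal day 30, with 3 wild-type mice and 3 NMF291–/– mice and 1 mouse per Affymetrix mouse exon array. NMF291–/– mice have lost 5 nucleotides from Rnu2-8, a gene for the U2 small nuclear RNA, and the labels name no other allele, no strain and no treatment. The series text describes the mice of each genotype as biological replicates. Each array appears in the deposited tables in a summary per gene (23332 rows) and in a summary per probe set, so both summaries rest on the same 6 mice. U2 RNA is the part of the spliceosome that pairs with the branch site of introns, and the study asked which transcripts are altered when one of its genes is mutated.

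Before a cell divides, a ring of 6 MCM proteins is loaded onto replication origins, and once activated it unwinds the DNA ahead of the polymerases, while the clamp PCNA, placed by the RFC loader, tethers the polymerases to the template. Transcription of many of these genes is driven by E2F factors as cells enter the DNA synthesis phase, while most cells of the cerebellum at this age are neurons that no longer divide. Repair genes differ in this respect: excision repair and end joining work in resting neurons too, whereas homologous recombination needs a sister copy of the DNA and is used mainly by dividing cells.

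Array medians at gene level were 8.00 to 8.03 (log2) in wild type and 8.05 to 8.09 in the mutants, and across rows the correlation between arrays was 0.992 to 0.994 within a genotype and 0.988 to 0.991 between genotypes. Markers of the labelled tissue were present, with the granule neuron receptor subunit Gabra6 at 12.62 ± 0.09 in wild type and 12.16 ± 0.03 in the mutants (log2, SD, n = 3) and the Purkinje cell gene Pcp2 at 10.08 ± 0.02 and 10.04 ± 0.15. Of 15 microglia markers measured 10 rose in the mutants and none fell, and their summed level was 11.95 to 12.05 (log2) in wild type but 12.89 to 13.56 in the mutants. Of 15 markers of dividing cells 1 rose, the cyclin gene Ccna2, and 12 had a positive difference (mutant minus wild type), beside 55.2% of all gene-level rows. The summed level of these 15 was 10.42 to 10.47 in wild type and 10.51 to 10.58 in the mutants. Of the other lists 1 of 7 astrocyte markers rose, 2 of 7 granule neuron markers fell, and none of 5 Purkinje cell, 5 oligodendrocyte, 5 endothelial or 5 choroid plexus markers passed, the summed choroid plexus level being 13.86 to 14.03 in wild type and 12.51 to 13.99 in the mutants. Markers that rose or fell are those called in the gene-level fit described below, in which 3.94% of all rows rose and 1.81% fell. No row is named for the mutated gene itself, which was not analysed here.

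Most members differed little between the genotypes, and 9 of 50 passed the test. Of the 50 members at gene level 42 had a positive difference (mutant minus wild type) and 8 a negative one (84% positive), where 55.2% of all rows were positive, with a median of 0.09 (log2) beside 0.02 over all 23332 rows. Under limma with Benjamini-Hochberg adjustment over all rows, 8 members were past the threshold of 0.05 upwards and 1 downwards, 18% of the 50, beside 5.75% of all rows called in either direction, 3.94% upwards and 1.81% downwards. At an unadjusted p under 0.05 there were 18, beside 23.0% of all rows. The 9 are the helicase subunits Mcm2, Mcm4 and Mcm5, the clamp loader subunit Rfc5, the polymerase subunit Pold2, the recombination genes Rad54l and Rad50, the checkpoint kinase Chek1 and, downwards, the mismatch repair gene Msh3. Without Mcm5, Rad54l and Rad50, which the choice of the list favours, 6 of 47 (12.8%) were past it and the median difference was 0.09. In 24 members all mutant arrays lay above all wild-type arrays and in 1 below, while 25 overlapped; over all rows 18.9% lay above and 11.1% below. All mutant array medians lay above all wild-type medians, and the sign count moved with the scaling of the arrays: after quantile normalization 33 of the 50 differences were positive and after median centring 31. The share of all rows that were positive was not counted after either step, so these counts have no background beside them. Since the samples are whole tissue, more cells of a type and more RNA per cell cannot be told apart in any of these values.

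**Figure D1:**
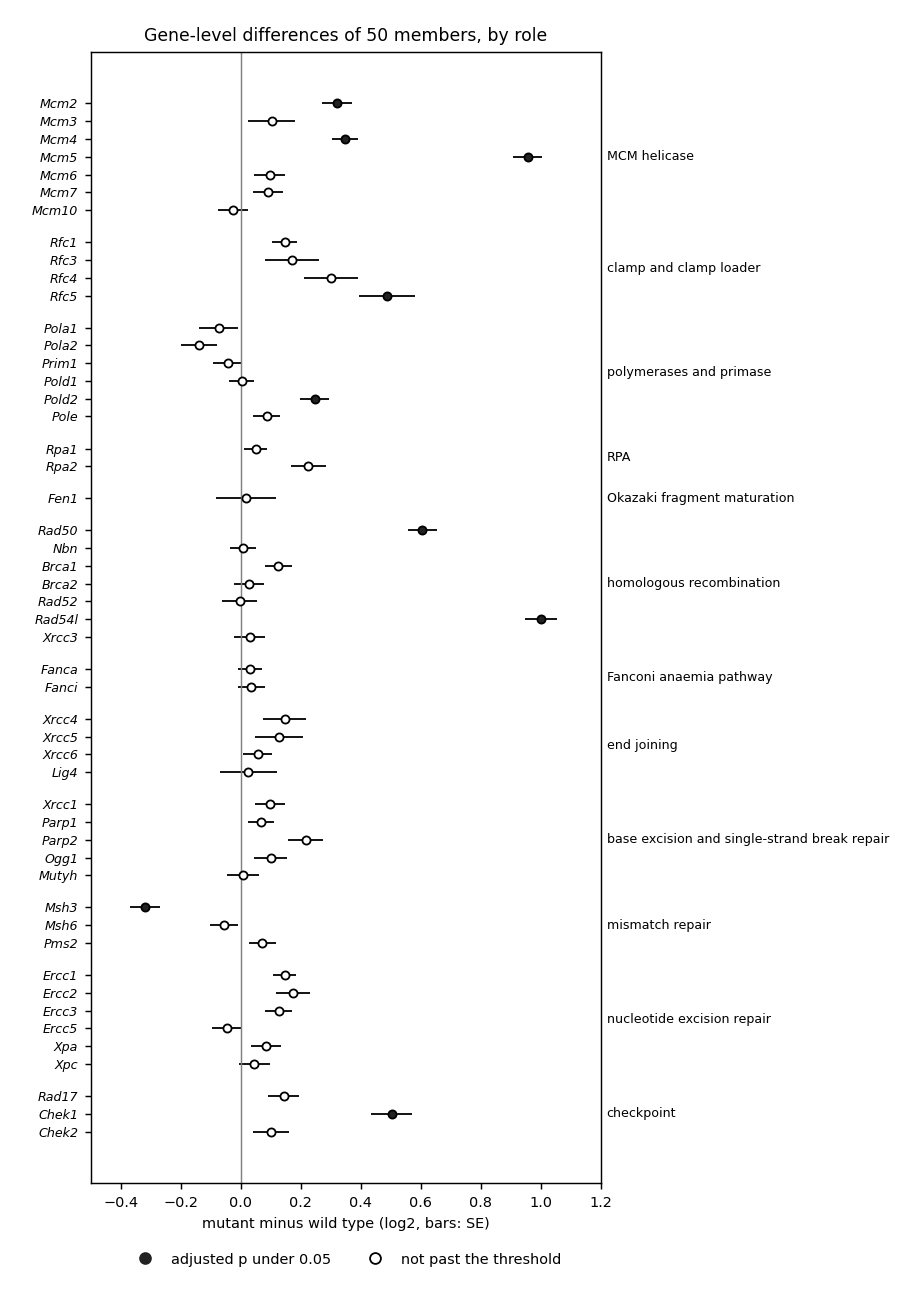
Gene-level difference of each of the 50 members, mutant minus wild type on the log2 scale (points, with the standard error as bars), in groups by role; filled points have an adjusted p under 0.05. Rad54l at 1.00 and Mcm5 at 0.96 stand farthest to the right, Msh3 at -0.32 farthest to the left, and members not past the threshold lie between -0.14 and 0.30.

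Among the 7 helicase genes the differences were unequal. Mcm5, a subunit of the MCM ring, was at 8.01, 8.06 and 7.99 (log2) on the 3 wild-type arrays and at 8.92, 8.999 and 9.02 on the 3 mutant arrays. The lowest mutant array thus lay well above the highest wild-type array, and the means of 8.02 ± 0.03 and 8.98 ± 0.05 (SD, n = 3) correspond to a 1.94-fold level in the mutants, a difference of 0.96 ± 0.05 (log2, SE). Mcm4, another subunit of the ring, was at 8.34, 8.27 and 8.34 in wild type and at 8.65, 8.67 and 8.67 in the mutants, a rise of 0.35 ± 0.04 (SE; adjusted p = 0.0162). Mcm2, which also binds histones at the fork, was at 7.83, 7.82 and 7.85 and at 8.09, 8.14 and 8.23, a rise of 0.32 ± 0.05 (adjusted p = 0.0285). In both genes the groups were apart on every array, by much less than in Mcm5.

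The other 3 subunits of the ring showed small differences that did not pass. Mcm6 was at 6.81, 6.80 and 6.82 in wild type and 6.87, 6.99 and 6.86 in the mutants (difference 0.10 ± 0.05, SE; adjusted p = 0.338). Mcm7 was at 7.84, 7.98 and 7.93 and at 8.00, 8.02 and 8.00 (0.09 ± 0.05; adjusted p = 0.353). Mcm3 was at 6.15, 6.20 and 6.35 and at 6.24, 6.33 and 6.44 (0.10 ± 0.08; adjusted p = 0.507). The mutant arrays lay above the wild-type arrays for Mcm6 and Mcm7 and overlapped them for Mcm3. Mcm10, which joins the helicase when it is activated and is no part of the ring, was at 7.50 to 7.56 in wild type and 7.45 to 7.57 in the mutants, a difference of -0.03 ± 0.05. The ring holds its subunits in equal numbers, and the differences of their transcripts ran from 0.09 to 0.96 (log2). Signal was weak for 2 of them: 10 of 20 Mcm6 probe sets and 8 of 15 Mcm3 probe sets had both means under 7.06, the 25th percentile of the exon-level table. For Mcm7 it was 1 of 18, for Mcm2 3 of 18, for Mcm4 3 of 24 and for Mcm5 1 of 19. Whether weak signal narrowed the differences of Mcm3 and Mcm6 was not tested.

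**Figure D2:**
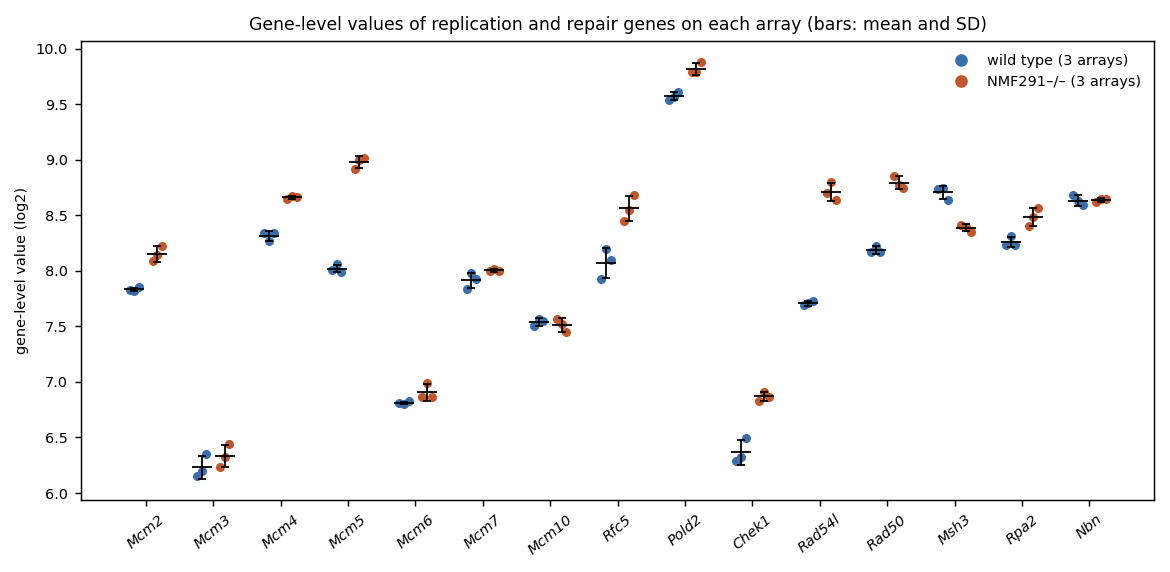
Gene-level value (log2) of 15 members on each of the 6 arrays, with the mean and SD of each genotype as bars; levels of different genes are not comparable, since their probes differ. Mcm5, Rad54l and Rad50 show the widest gaps between wild type (blue) and mutant (orange), Msh3 is the gene with the mutant arrays below, and Mcm3, Mcm10 and Nbn overlap.

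Promoter windows were set beside these values because E2F-type sequences are a known feature of replication genes. The windows are those of RefSeq (build GRCm38.p6), from 250 bases before to 50 after each annotated start, and were searched on both strands for GCGGGAA and TTGGCGC, letters of the E2F site; TTGGCGC can overlap its own match on the opposite strand. Windows were found for 48 of the 57 members. A match to either motif was present in 26 of these 48 genes (54.2%), against 7.79% of the 27025 genes of the table. Among members with a window a match was present in 2 of the 6 that were higher at gene level, Mcm5 and Chek1, in Msh3, and in 21 of the 37 not called (56.8%). Rpa3 and Lig1, which have no values here, also hold a match. Below are the windows of the ring subunit with the widest difference (Mcm5), of one with a smaller rise (Mcm2) and of one that did not pass (Mcm6), 5′ to 3′ on the gene's strand with motif matches in capitals.
Mcm5, chr8:75109259-75109558, plus strand: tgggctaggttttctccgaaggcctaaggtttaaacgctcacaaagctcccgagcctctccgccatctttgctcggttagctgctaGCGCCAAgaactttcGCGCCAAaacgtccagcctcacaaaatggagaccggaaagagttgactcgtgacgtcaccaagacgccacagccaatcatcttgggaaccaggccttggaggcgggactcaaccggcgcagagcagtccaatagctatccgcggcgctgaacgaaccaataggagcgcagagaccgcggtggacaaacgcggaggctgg
Mcm2, chr6:88898731-88899030, minus strand: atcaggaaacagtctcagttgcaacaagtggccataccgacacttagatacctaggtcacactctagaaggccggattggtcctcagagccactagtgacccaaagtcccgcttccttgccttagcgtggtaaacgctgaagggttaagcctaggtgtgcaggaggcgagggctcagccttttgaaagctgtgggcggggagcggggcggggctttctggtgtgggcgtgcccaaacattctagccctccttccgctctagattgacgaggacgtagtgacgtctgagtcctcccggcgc
Mcm6, chr1:128359656-128359955, minus strand: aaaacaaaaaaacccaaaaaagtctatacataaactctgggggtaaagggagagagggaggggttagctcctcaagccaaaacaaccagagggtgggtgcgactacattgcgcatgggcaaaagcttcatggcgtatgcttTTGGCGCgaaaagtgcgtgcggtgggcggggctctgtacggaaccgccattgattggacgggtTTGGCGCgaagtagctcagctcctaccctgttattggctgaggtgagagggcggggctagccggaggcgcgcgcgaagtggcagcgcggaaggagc
The Mcm5 window holds 2 matches to TTGGCGC on the opposite strand, starting at -164 and -149 from the start site. The Mcm6 window also holds 2, at -109 and -46, while the Mcm2 window holds none; a match is only a run of letters, and its absence says only that these letters are not in this window.

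Of the 4 clamp loader genes with a gene-level row 1 passed. Rfc5, a small subunit of the RFC loader, was at 7.93, 8.19 and 8.10 (log2) in wild type and at 8.45, 8.55 and 8.68 in the mutants, a rise of 0.49 ± 0.09 (SE; adjusted p = 0.0412). Its wild-type arrays were spread more widely than those of the other called members but stayed below every mutant array. Rfc4 at 0.30 ± 0.09, Rfc3 at 0.17 ± 0.09 and Rfc1, the large subunit, at 0.15 ± 0.04 did not pass (adjusted p of 0.114, 0.330 and 0.103). Pcna, the clamp itself, has 15 probe sets and no gene-level row with 1 symbol: 12 of its probe sets had a positive difference, the median was 0.17, the highest 0.48, and none passed at exon level.

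Of the 6 polymerase and primase genes 1 rose and none fell. Pold2, the second subunit of the lagging-strand polymerase delta, was at 9.54, 9.57 and 9.61 in wild type and 9.79, 9.79 and 9.88 in the mutants, a rise of 0.25 ± 0.05 (SE; adjusted p = 0.0459). Its catalytic partner Pold1 was at 8.34, 8.34 and 8.33 and at 8.38, 8.32 and 8.32, a difference of 0.003 ± 0.042. Of the primase-polymerase that starts each new strand, Pola1 at -0.07, Pola2 at -0.14 and Prim1 at -0.04 did not pass and overlapped between genotypes, and Pole, the leading-strand polymerase, at 0.09 did not pass either. The single-stranded DNA binding genes Rpa2 at 0.22 ± 0.06 (adjusted p = 0.0835) and Rpa1 at 0.05 ± 0.04, and the flap nuclease gene Fen1 at 0.02 ± 0.10, did not pass.

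In homologous recombination 2 genes stood far from the rest. Rad54l, a DNA motor protein of homologous recombination, was at 7.69, 7.71 and 7.73 (log2) in wild type and at 8.70, 8.80 and 8.64 in the mutants. The means of 7.71 ± 0.02 and 8.71 ± 0.08 (SD, n = 3) are 1.00 ± 0.05 (log2, SE) apart, a doubling, and no array of either genotype came near the other. Rad50, the coiled-coil ATPase of the complex that senses and tethers broken ends, was at 8.17, 8.23 and 8.17 and at 8.86, 8.78 and 8.75, a 1.52-fold level in the mutants (0.61 ± 0.05, log2, SE). Its partner in the same complex, Nbn, was at 8.68, 8.63 and 8.59 and at 8.62, 8.65 and 8.65, a difference of 0.01 ± 0.04 with overlapping groups. Brca1 at 0.12 ± 0.05, Brca2 at 0.03 ± 0.05, Xrcc3 at 0.03 ± 0.05 and Rad52 at -0.005 ± 0.059 did not pass at gene level. The Rad54l promoter window, given as a contrast to that of Mcm5, holds no match to either motif. For Rad50 and Mcm4 no window was found, so none was searched.
Rad54l, chr4:116123641-116123940, minus strand: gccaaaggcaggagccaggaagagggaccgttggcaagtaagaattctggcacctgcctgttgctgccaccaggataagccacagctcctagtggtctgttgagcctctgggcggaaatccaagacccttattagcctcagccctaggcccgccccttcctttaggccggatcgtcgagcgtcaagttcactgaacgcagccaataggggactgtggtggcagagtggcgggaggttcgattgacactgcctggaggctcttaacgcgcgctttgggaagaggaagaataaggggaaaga

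Among checkpoint genes Chek1, the kinase that acts when replication stalls, was at 6.28, 6.32 and 6.49 in wild type and at 6.83, 6.91 and 6.87 in the mutants, a 1.42-fold rise (0.50 ± 0.07, log2, SE; adjusted p = 0.0203). Chek2, the kinase that acts after DNA breaks, at 0.10 ± 0.06 and the clamp loader Rad17 at 0.14 ± 0.05 did not pass (adjusted p of 0.378 and 0.170). The Chek1 window has 1 match to GCGGGAA, starting 43 bases after the start site, and is shown because it and Mcm5 are the 2 higher members with a match.
Chek1, chr9:36726609-36726908, minus strand: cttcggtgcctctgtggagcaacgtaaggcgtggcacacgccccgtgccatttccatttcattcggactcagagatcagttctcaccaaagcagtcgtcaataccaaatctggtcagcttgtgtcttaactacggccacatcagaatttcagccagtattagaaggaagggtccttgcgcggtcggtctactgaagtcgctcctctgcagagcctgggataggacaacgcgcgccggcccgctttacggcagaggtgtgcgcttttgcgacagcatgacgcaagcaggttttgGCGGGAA

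Msh3 was the member with the largest fall. It forms the mismatch repair complex for larger loops of unpaired bases, and was at 8.73, 8.75 and 8.64 in wild type and 8.42, 8.39 and 8.35 in the mutants, at 0.801 of its wild-type level (-0.32 ± 0.05, log2, SE; adjusted p = 0.0277). Msh6, its counterpart for small mismatches, at -0.06 ± 0.05 and Pms2, the nuclease that follows them, at 0.07 ± 0.04 did not pass.

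No gene of the remaining repair routes passed at gene level. For nucleotide excision repair the 6 genes ran from -0.05 to 0.17, with Ercc1, a subunit of the nuclease that cuts on the 5′ side, at 0.15 ± 0.04 (adjusted p = 0.0904) and the helicase gene Ercc2 at 0.17 ± 0.06. For base excision and single-strand break repair 5 genes ran from 0.01 to 0.22, the highest being Parp2, a sensor of strand breaks, at 0.22 ± 0.06 (adjusted p = 0.0910). The 4 end joining genes ran from 0.03 for Lig4 to 0.15 for Xrcc4, and the Fanconi anaemia genes Fanca and Fanci, which act on crosslinked DNA, were at 0.03 and 0.04. Ercc1, Ercc2, Parp2 and 13 other members that did not pass had all mutant arrays above all wild-type arrays, a pattern whose share over all rows is given above.

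Beside the listed members, other genes of the same pathways were counted. Of 33 other replication genes, such as those for the origin recognition complex, the loader Cdc6 and the GINS complex, 1 rose and none fell, beside 3.94% of all rows called upwards, with a median difference of 0.04: Pole3, a small subunit of polymerase epsilon, at 0.24 ± 0.04 (SE; adjusted p = 0.0375). Cdc45, the helicase cofactor, at 0.21 ± 0.05 did not pass (adjusted p = 0.0614). Of 30 other repair genes measured 3 rose and none fell, with a median of 0.08: the helicase gene Blm at 0.45 ± 0.07 (adjusted p = 0.0286), the abasic site nuclease gene Apex1 at 0.29 ± 0.04 (adjusted p = 0.0276) and Ddb1, a DNA damage binding protein and ubiquitin ligase adaptor, at 0.28 ± 0.04 (adjusted p = 0.0286). Of the dividing cell markers Mki67 was at 0.01 ± 0.13, Top2a at 0.20 ± 0.06, Cdk1 at 0.21 ± 0.05 and Birc5 at -0.01 ± 0.06, none past the threshold, and Ccna2 at 0.46 ± 0.07 (adjusted p = 0.0247). Mki67 and Top2a lay well under the array medians, with means of 4.95 and 4.81 (log2) in wild type and 4.96 and 5.01 in the mutants. So did the markers Tk1, Cenpe, Ttk and Bub1, with genotype means of 4.62 to 5.39. Whether the levels of the dividing cell markers or of the microglia markers take part in the differences of Mcm2, Mcm4, Mcm5, Rad54l, Rad50 and Chek1 was not tested.

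Most calls outside Mcm5, Rad54l and Rad50 needed all 6 arrays. Mcm2 (adjusted p of 0.0696 to 0.0967), Rfc5 (0.0773 to 0.122), Pold2 (0.0973 to 0.131) and Msh3 (0.0612 to 0.0936) were lost whichever array was left out, as the share of all rows called fell from 5.75% to between 0.326% and 2.13%. Mcm4 stayed past the threshold without wild-type replicate 1 only, and Chek1 without wild-type replicate 3 only. None of these 6 differences changed sign in any of these fits. After quantile normalization Rfc5 (0.43, log2) and Pold2 (0.20) had differences of similar size that did not pass (adjusted p of 0.0573 and 0.0790), as after median centring (0.44 and 0.20; 0.0599 and 0.102). Mcm2 was at 0.27 after median centring and did not pass (adjusted p = 0.0501).

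At exon level each probe set, a handful of probes on a stretch of exon, has its own value. Of the members' 1076 probe sets 35 were called higher and 6 lower (3.81%), beside 1.00% of all 229581 probe sets, 0.603% higher and 0.402% lower. Of these 41, 33 belong to Mcm5, Rad54l and Rad50, and all other members together had 8 of 1001 called (0.799%). With any array left out none of the 1076 was called by limma (216 to 261 at an unadjusted p under 0.05), and none of all probe sets, so no exon-level call held with fewer than all 6 arrays. The members' gene-level difference and the median of their probe set differences were close, within 0.1 (log2) in 46 of 50 members, with the widest gap, 0.16, in Rfc5. Both are summaries of the same arrays, so their closeness is no independent support.

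**Figure D3:**
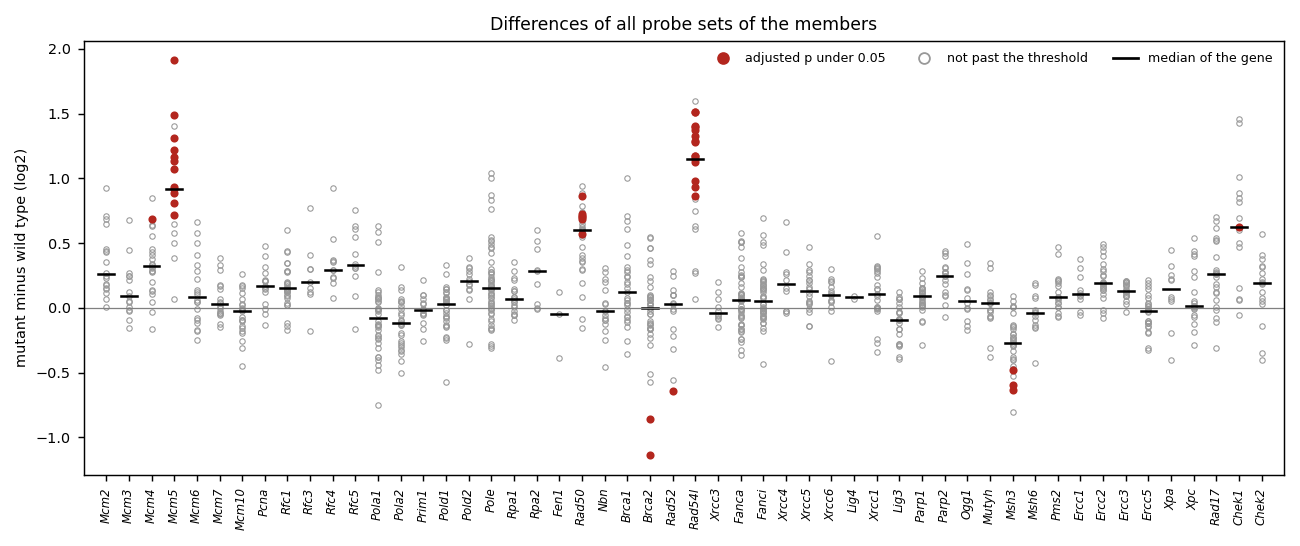
Difference (mutant minus wild type, log2) of each of the 1076 probe sets in 52 members, 1 column per gene; filled points have an adjusted p under 0.05 and the bar is the gene's median. The filled points are gathered in Mcm5, Rad54l and Rad50 above 0, and in Msh3, Brca2 and Rad52 below 0.

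Within Mcm5 the probe sets differed in how much higher they were. All 19 probe sets had a positive difference, in 18 the mutant arrays lay above the wild-type arrays (24.1% of all probe sets did not overlap in either direction), 12 were called higher, and the median was 0.92. Probe set 4963701 had the widest difference, from 7.35, 7.57 and 7.18 (log2) in wild type to 9.21, 9.48 and 9.15 in the mutants, 1.91 ± 0.14 (SE). At the other end probe set 4584464 was at 9.48, 9.65 and 9.53 and at 9.65, 9.53 and 9.69, a difference of 0.07 ± 0.09 with overlapping groups. Probe set 4609919, at 9.43, 9.53 and 9.45 in wild type, went to 10.55, 10.69 and 10.68. The splicing index, a probe set's value minus the median of its gene's probe sets on the same array, ran from -0.95 for 4584464 to 0.88 for 4963701. Where these probe sets lie in the gene was not analysed here.

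Rad54l had 24 probe sets, all with a positive difference, 22 with the mutant arrays above and 15 called higher, with a median of 1.15. Probe set 4606266 had the highest difference, 1.60 ± 0.26 (SE), from 6.69, 6.33 and 6.44 to 7.83, 8.70 and 7.73, and it was not called because its mutant arrays were spread. Probe set 4463752 rose from 8.05, 7.82 and 7.78 to 9.51, 9.38 and 9.29 (1.51 ± 0.11). A few probe sets stood low: 5162148 was at 7.39, 7.62 and 6.86 and at 7.44, 7.28 and 7.35 (0.07 ± 0.19), 4971145 at 0.27 ± 0.11 and 5266584 at 0.29 ± 0.10. Their indices were negative, the lowest being -0.87 for 5162148, and the highest index was 0.67 for 4606266.

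Rad50 had 32 probe sets, of which 30 had a positive difference, 26 had the mutant arrays above, 1 had them below, and 6 were called higher, with a median of 0.60. The highest difference was that of 4804299, from 6.67, 6.72 and 6.30 to 7.31, 7.32 and 7.89 (0.94 ± 0.19, SE), not called. Probe set 5109462 was at 8.41, 8.49 and 8.45 in wild type and at 8.98, 9.05 and 9.04 in the mutants (0.57 ± 0.08), with the smallest standard error of the called ones. Probe set 5323127 went the other way, from 8.51, 8.52 and 8.64 to 8.38, 8.44 and 8.38 (-0.15 ± 0.08), and had the lowest index, -0.77. Probe set 4829148 was near the bottom of the table in both genotypes, at 2.74 to 3.21 and 2.75 to 3.13. The spread of differences within the gene (SD 0.26) was narrower than in Mcm5 (0.43) and Rad54l (0.42). Over 15207 genes with 3 or more probe sets the median SD was 0.16 and the 90th percentile 0.29. A wide spread was common among the members: over 51 with 3 or more probe sets the median SD was 0.21. Of these, 38 were above the median over genes and 6 above the 90th percentile.

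**Figure D4:**
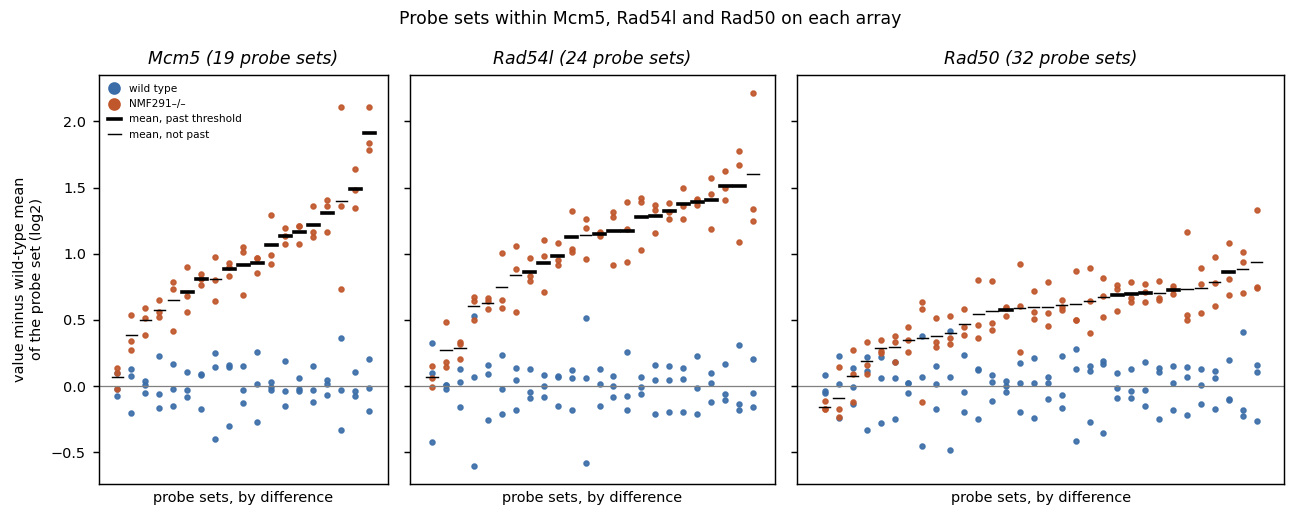
Value of each probe set on each array minus the probe set's wild-type mean (log2), for Mcm5, Rad54l and Rad50, with probe sets ordered by difference; bars mark the mutant mean, thick where the adjusted p was under 0.05. The mutant points (orange) lie above the wild-type points (blue) in most probe sets of each gene, with the lowest probe sets at 0.07 in Mcm5, 0.07 in Rad54l and -0.15 in Rad50.

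In 5 other members 1 to 3 probe sets were called, the 8 of 1001 (0.799%) given above, beside 1.00% of all probe sets; each of these calls was lost with any array left out. Brca2, a tumour suppressor gene of homologous recombination, had a median difference of 0.00 over 39 probe sets, yet 2 fell: 5271269 from 8.85, 9.05 and 8.70 to 7.98, 7.97 and 8.07 (-0.86 ± 0.11, SE; limma adjusted p = 0.0323), and 4592630 from 8.66, 8.38 and 8.19 to 7.25, 7.55 and 7.03 (-1.14 ± 0.17; adjusted p = 0.0443). Both were apart from the wild-type arrays on every mutant array, while 32 of the gene's probe sets overlapped between genotypes. Of the 39 probe sets of Brca2, 19 had both means under the 25th percentile of the exon-level table (7.06). Rad52, a recombination gene, had a median of 0.03 over 15 probe sets, and 5603337 fell from 12.20, 12.15 and 12.25 to 11.67, 11.54 and 11.46 (-0.64 ± 0.09; adjusted p = 0.0377).

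Msh3 moved more evenly: 30 of 35 probe sets were negative, 17 had the mutant arrays below, and 3 fell, 5307082 by 0.63 on the log2 scale, 4821930 by 0.60 and 4345372 by 0.48 (adjusted p of 0.0386, 0.0480 and 0.0454). In Chek1 14 of 15 probe sets were positive and 5407263 rose, from 6.92, 6.75 and 6.79 to 7.48, 7.47 and 7.38 (0.62 ± 0.08; adjusted p = 0.0371). In Mcm4 22 of 24 were positive and 5510267 rose, from 8.97, 8.84 and 8.85 to 9.66, 9.48 and 9.59 (0.69 ± 0.09; adjusted p = 0.0337). Chek1 had the widest spread of differences of all members (SD 0.46); 8 of its 15 probe sets had both means under 7.06, the 25th percentile of the table.

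**Figure D5:**
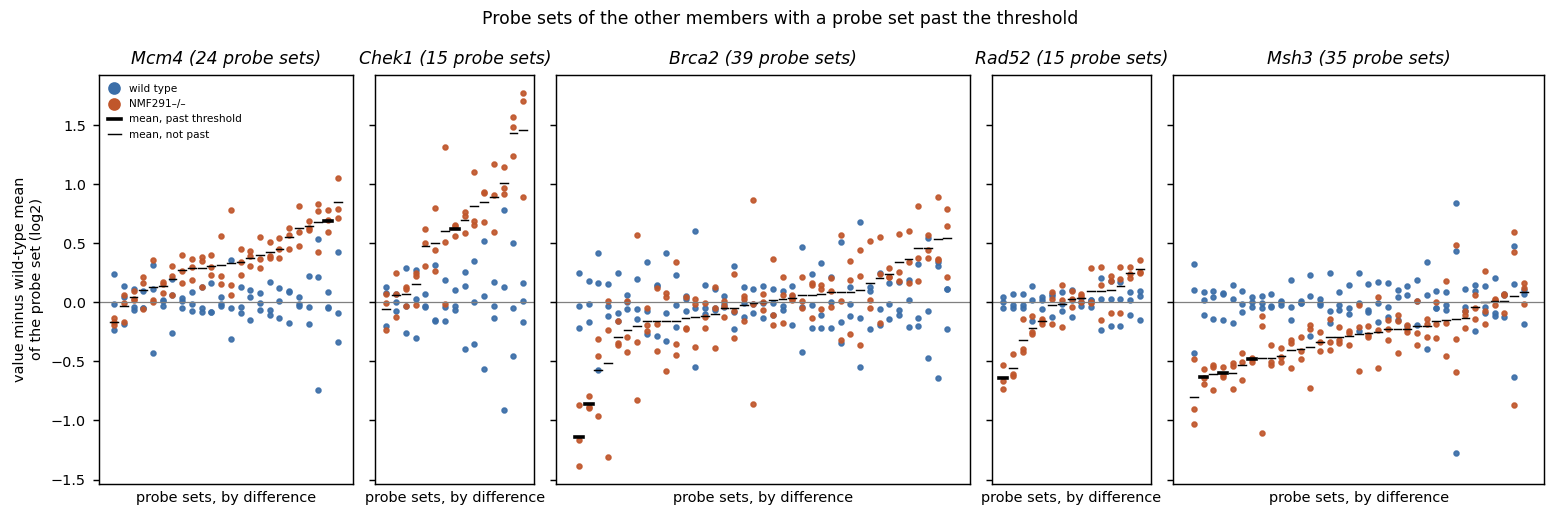
Value of each probe set on each array minus its wild-type mean (log2) for the 5 other members with a called probe set, ordered by difference; thick bars mark mutant means with an adjusted p under 0.05. In Brca2 and Rad52 most mutant points (orange) lie around 0 and the called probe sets lie at the left end, whereas in Msh3 most mutant means lie below 0 and in Chek1 and Mcm4 above it.

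Exon usage was tested on the splicing index of well-measured probe sets, in genes whose median was at or above 8.56, the middle of the exon-level table. This left 282 probe sets in 16 members, without Mcm5, Rad54l, Rad50, Brca2, Msh3 and Chek1. By limma 0 of the 282 passed, with 33 at an unadjusted p under 0.05, beside 0.00838% and 11.2% of all 107352 probe sets tested. The smallest adjusted p was 0.176, for Rad52 probe set 4923532, whose index was higher in the mutants by 0.44. The Rad52 median on each array, which the index subtracts, was itself lower in the mutants, with a difference of -0.19. The highest difference of any Rad52 probe set was 0.28. The index of Rad52 probe set 5603337 fell by 0.46 (adjusted p = 0.256), and that of Mcm4 probe set 5510267 was higher by 0.45 (adjusted p = 0.198). The limma function diffSplice, which sets each probe set against the others of its gene, called 3 of the 282, beside 1.26% of all probe sets. These were Rad52 probe sets 5603337 at -0.63 and 5590778 at -0.53 and Mcm4 probe set 5344543 at -0.52 relative to the rest of the gene (diffSplice adjusted p of 9.53e-05, 0.00145 and 0.0174). This function pools the variance of a gene's probe sets, so its p-values treat probe sets of the same mice as replicates. No diffSplice fit was made with an array left out.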

How the data were processed

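RNA of whole cerebellum was prepared with TRIzol and hybridised after WT Terminal Labeling, per the labels' protocols. The range of the deposited values is that of log2 intensities, and they were read as log2; what the authors did for background correction, normalization and summary is not given in the sources used here. An unstated normalization can shift differences between arrays. The submitters' processing notes name build mm8. Arrays give no counts, so their number, 3 per genotype, limits the precision.

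Rows were named from the platform annotation, with symbols updated through RefSeq GRCm38.p6. Differences, mutant minus wild type, were fitted in R 4.3.3 with limma 3.58.1, by lmFit and eBayes without covariate or filter and with two-sided p-values, separately for the 23332 gene-level rows and the 229581 probe sets, with Benjamini-Hochberg adjustment across each whole table and calls at 0.05. The splicing index was tested in genes with at least 3 probe sets and a median at or above 8.56, for probe sets at or above 7.06. Simulated arrays with known differences were put through the same fits, with noise drawn independently for each row. The level filters of the splicing index were left out there. No result above rests on these simulated arrays, whose probe sets of a gene do not vary together. Where a listed gene outside the members has several rows, the row with the highest mean was taken. Summed marker levels are log2 of the sum of unlogged values. Members and lists were chosen with earlier results of these data known; lists got no test.

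The members named are all MCM genes, those past the threshold, the smallest p in each role, and the largest rise and fall. Called genes of the other replication and repair lists are named too, while called cell type markers were mostly counted without a name. Probe sets named in Mcm5, Rad54l and Rad50 include the highest and lowest difference and index. Other genes, such as Nbn, Pold1, Mki67 and Cdc45, were named after their values were seen. The labels give no batch. Same-numbered replicates did not deviate together (correlations of -0.04 to 0.03 at gene level). The comparison of MCM proteins that had been planned was not run. Python 3.11.15 and matplotlib 3.10.9 made the figures.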

Additional observations from a re-analysis of the deposited data

How the results depend on the processing

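Of the 50 members, 9 passed at gene level. In limma with the replicate number as a block 0 members passed, 16 having an unadjusted p under 0.05, and 0 of all rows. At exon level the replicate block left 0 probe sets against 41, with 247 at an unadjusted p under 0.05. Same-numbered replicates did not deviate together (correlations of -0.04 to 0.03 at gene level and -0.02 to 0.01 at exon level). The labels do not say whether equal numbers pair the mice, so whether this block suits these arrays cannot be told. Leaving out 1 array gave 3 to 4 members and 0 probe sets (216 to 261 at an unadjusted p under 0.05). Trend and robust settings gave 10 members and 106 probe sets, rows at or above the table median 12 members and 63 probe sets, and transcript clusters only 10 members. Quantile normalization gave 7 members and 40 probe sets and median centring 6 and 41. These counts are given without the share of all rows called in the same fit, and the median filter also left fewer members tested. A higher count is therefore no stronger result about the members. For the splicing index diffSplice called 3 probe sets against 0, and the other alternatives called 0 (26 to 135 at an unadjusted p under 0.05), among them the replicate block and leaving out each array.

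Of 19 genes followed through all gene-level alternatives, signs turned only in Fen1, Fanci and Mcm10. Fen1, at 0.017, was at -0.015 after quantile normalization, at -0.033 after median centring and at -0.067 to 0.086 with an array left out. Fanci, at 0.035, was at -0.015 after median centring. Mcm10, at -0.026, was at -0.054 to 0.0053 with an array left out, the positive value being that without mutant replicate 3. None of these 3 passed in any fit, and the cause of these shifts was not tested.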
